A study of Mus musculus with 9 samples.

Results

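The cilium genes described here were chosen by name from the 51912 genes counted in mouse mammary tumour organoids, and there were 76 of them. They comprise every gene whose symbol is Ift, Bbs, Cfap, Dnah or Tekt followed by a number, together with 5 single genes, Foxj1, Rfx2, Rfx3, Efhb and Cys1. The 14 Ift and 8 Bbs genes (22 in all) belong to the primary cilium, and the 29 Cfap, 15 Dnah and 5 Tekt genes (49 in all) to motile cilia and flagella. The single genes were put in the rule by name with earlier results of these data known, so neither their calls nor their direction are independent evidence. Of the 76 genes, 47 had enough counts to be tested: 22 of 22 primary cilium genes, 20 of 49 motile cilium genes and 5 of 5 single genes.

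RNA sequencing compared organoids, small pieces of epithelium freshly isolated from mammary tumours, with and without floxed Cdh1, the gene for the adhesion molecule E-cadherin. All organoids came from FVB/NJ mice with the alleles MMTV::PyMT, in which the MMTV promoter drives the polyoma middle T oncogene, and (R26)pCA::mT/mG, a Cre reporter. The 4 WT samples carried Cdh1+/+ and the 5 E-cad-KO samples carried Cdh1fl/fl. Every sample, WT included, was exposed to adeno-Cre overnight and then grown for 48 h in collagen I with b-FGF2. The labels give neither the age of the mice, nor the exons that are floxed, nor which animal each sample came from. The design text calls the samples biological replicates, and p-values measure the spread between them.

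A cilium is a membrane-covered projection built on a basal body around an axoneme of microtubule doublets. Intraflagellar transport (IFT) trains carry cargo along it, and the BBSome, a complex named after Bardet-Biedl syndrome, moves membrane proteins in and out. A primary cilium is single, immotile and senses signals such as Hedgehog, whereas motile cilia add dynein arms, radial spokes and a central apparatus under a programme led by FOXJ1 and RFX transcription factors. Primary cilia are known on cells of the mammary gland, and multiciliated cells are not a usual cell type of that epithelium.

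Library totals ran from 44890302 to 64763645 counts, and levels are given in CPM, the counts scaled to a common normalised library size, with 44.2 counts to 1 CPM where the library was smallest. Cdh1 stood between 150.3 and 246.5 CPM in WT and between 79.1 and 118.3 CPM in E-cad-KO, so the groups did not overlap. Calls below mean an adjusted p under 0.05 in edgeR's quasi-likelihood test, fitted over all 17289 genes tested. Marker sums of epithelium, in which Krt14 had the highest level in every library, were 5146 to 15050 CPM in WT and 7226 to 11675 CPM in E-cad-KO. Those of macrophages were 6.49 to 63.7 CPM in WT and 7.71 to 30.0 CPM in E-cad-KO, highest in WT 4. Those of fibroblasts were 62.2 to 341 CPM in WT and 127 to 212 CPM in E-cad-KO, and those of endothelium 5.18 to 10.7 CPM and 3.58 to 6.35 CPM, with 0 genes called by edgeR in any of the 4 lists. At an unadjusted p under 0.05 the counts were 2 of 6 tested epithelial, 0 of 8 macrophage, 0 of 7 fibroblast and 2 of 5 endothelial markers. For all tested genes that share was 16.7%. Log2 fold changes were below 0 in 3 epithelial, 7 macrophage, 4 fibroblast and all 5 endothelial markers tested (endothelial median -0.94). Over all genes tested, 8997 of 17289 were below 0. DESeq2 called 2 epithelial and 1 endothelial marker, beside 7.46% of all genes it tested, and limma-voom called 1 epithelial marker, beside 2.94%.

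Foxj1, which encodes the forkhead factor that leads the motile cilium programme, had its lowest E-cad-KO library above its highest WT library. It stood at 5.76, 8.79, 5.87 and 6.26 CPM in WT 1 to 4 and at 14.1, 15.7, 15.8, 25.0 and 23.3 CPM in E-cad-KO 1 to 5. The groups did not overlap, WT 2 was the highest of its group, and E-cad-KO 4 and 5 stood above the other 3 of theirs. The means were 6.67 ± 1.43 CPM (SD, n = 4) in WT against 18.8 ± 4.98 CPM (SD, n = 5) in E-cad-KO, a 2.81-fold rise. The log2 fold change was 1.49 (SE 0.21, 95% interval 1.03 to 1.96), with an adjusted p of 0.0203 by edgeR. Foxj1 lies at chr11:116330704-116335399 on the minus strand of GRCm38, and no annotated exon of another gene overlaps its exons. Without WT 3 its log2 fold change was 1.43 with an adjusted p of 0.0777 in edgeR, and in each of the other 8 fits without 1 library it stayed called. In bulk RNA of whole gels, more cells with a transcript and more of it per cell cannot be told apart.

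Efhb, which encodes an EF-hand protein of the motile axoneme, was also higher in every E-cad-KO library, at much lower counts. It had 17, 17, 11 and 19 counts in WT 1 to 4, or 0.289, 0.271, 0.180 and 0.347 CPM. It had 39, 39, 31, 54 and 50 counts in E-cad-KO 1 to 5, or 0.685, 0.659, 0.701, 1.11 and 0.777 CPM. The groups did not overlap, and E-cad-KO 4 was again the highest library. The means were 0.272 ± 0.0689 CPM (SD, n = 4) and 0.786 ± 0.185 CPM (SD, n = 5), a 2.88-fold rise. Efhb had a log2 fold change of 1.53 (SE 0.29, 95% interval 0.89 to 2.16), with an adjusted p of 0.0367 by edgeR. Only the fit without WT 4 kept this call when 1 library was left out (adjusted p = 0.0393), and the other 8 gave adjusted p of 0.0604 to 0.112 in edgeR. Efhb lies at chr17:53398889-53463321 on the minus strand.

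Cys1, which encodes cystin, a membrane-associated protein of the primary cilium, had the third call. It stood at 0.323, 0.478, 0.541 and 0.420 CPM in WT 1 to 4 and at 1.28, 1.27, 1.31, 0.717 and 0.964 CPM in E-cad-KO 1 to 5. The WT libraries held 19 to 33 counts each and the E-cad-KO libraries 35 to 75, and the groups did not overlap. E-cad-KO 4 and 5, the highest libraries for Foxj1, were the lowest of their group for Cys1. The means were 0.440 ± 0.0929 CPM (SD, n = 4) and 1.11 ± 0.260 CPM (SD, n = 5). The log2 fold change was 1.33 (SE 0.27, 95% interval 0.73 to 1.92), with an adjusted p of 0.0423 by edgeR. No fit without 1 library kept this call (adjusted p = 0.0571 to 0.108 in edgeR). It was also lost in limma-voom (0.0508) and in edgeR with a filter of at least 1 count in any library (0.0540). Cys1 lies at chr12:24665833-24681813 on the minus strand.

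Rfx2 and Rfx3 encode RFX factors, which bind paired X-box motifs in front of many cilium genes, and neither was called. Rfx2 stood at 5.30, 3.73, 5.07 and 4.199 CPM in WT 1 to 4 and at 5.29, 4.92, 5.47, 4.40 and 4.51 CPM in E-cad-KO 1 to 5. Rfx3 stood at 19.9, 18.8, 20.5 and 16.8 CPM in WT and at 18.2, 16.8, 14.8, 18.8 and 18.9 CPM in E-cad-KO. The groups overlapped for both genes, as the plot of single genes by library shows. The log2 fold change of Rfx2 was 0.10 (95% interval -0.21 to 0.42, adjusted p = 0.777 by edgeR), and that of Rfx3 was -0.12 (95% interval -0.32 to 0.09, adjusted p = 0.575). Of the 5 single genes 3 were called, all higher. Over all tested genes 1.41% were called in either direction, 0.908% higher and 0.503% lower. Since these 5 genes were chosen with earlier results of these data known, the count is a description and not a test of enrichment.

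**Figure D1:**
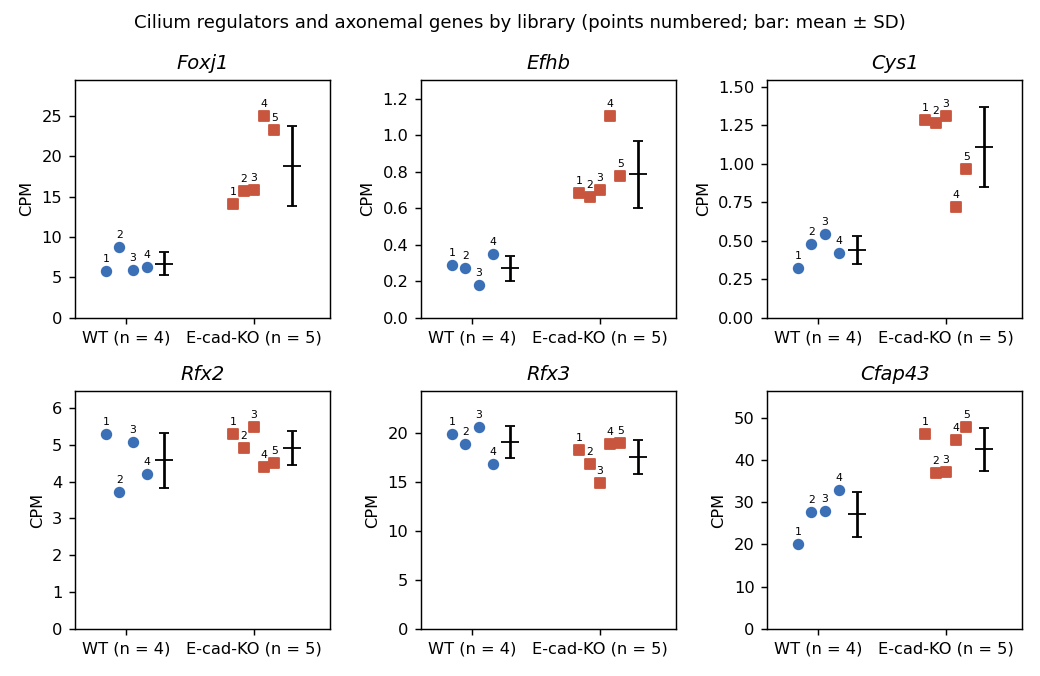
Level in CPM (linear axes from 0) of Foxj1, Efhb, Cys1, Rfx2, Rfx3 and Cfap43 in each of the 4 WT and 5 E-cad-KO libraries, numbered by replicate, with the mean and SD of each group as a bar. For Foxj1, Efhb, Cys1 and Cfap43 all E-cad-KO points lie above all WT points, and for Rfx2 and Rfx3 the groups overlap.

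Apart from Foxj1, the chosen markers of multiciliated cells had at most 24 counts each over all 9 libraries. Of the 10 chosen markers, Foxj1 was the only 1 with enough counts to test. In a wider list of the multiciliation programme, described further on, 7 of 13 genes were tested, and Mcidas, Ccno and Deup1 were not among them. Mcidas, a coactivator that starts multiciliation, Sntn and Fam183b had 0 counts in all 9 libraries, where a limit of 3 counts over them is 0.00587 CPM. Ccno, a cyclin-like protein of the same programme, had 24 counts over all libraries, Tekt1 15, Dnah9 8, Deup1 6, Hydin 2 and Dnah5 1. The summed level of the 10 markers was 5.83 to 8.83 CPM in WT and 14.3 to 25.2 CPM in E-cad-KO, nearly all of it Foxj1. The macrophage marker sums, 22.4 CPM in E-cad-KO 4 and 30.0 CPM in E-cad-KO 5, were highest in the same E-cad-KO libraries as Foxj1. Beside Foxj1, the epithelial markers had differences of both signs. Krt8, a luminal keratin, averaged 1164 ± 110.2 CPM (SD, n = 4) in WT against 1521 ± 123.2 CPM (SD, n = 5) in E-cad-KO without overlap, a log2 difference of 0.39 (adjusted p = 0.0530 by edgeR), and DESeq2 and limma-voom called it. The log2 differences of Krt18 and Epcam were 0.30 and 0.17, and those of Krt19, Krt14 and Krt5, of which Krt14 and Krt5 are basal keratins, were -0.57, -0.36 and -0.92, none called by edgeR. The part of these differences in the Foxj1 difference was not tested. With the macrophage score of each library as a covariate, the log2 fold change of Foxj1 was 1.47 (adjusted p = 0.00551 by edgeR).

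The Ift and Bbs genes of the primary cilium were all expressed and none was called. By edgeR 0 of 22 passed, and DESeq2 and limma-voom also called 0, beside 7.46% and 2.94% of all genes these tools tested. At an unadjusted p under 0.05 there were 2 of 22, against 16.7% of all tested genes. The log2 fold changes ran from -0.27 to 0.19 with a median of -0.04, beside -0.01 over all tested genes, and 9 were above and 13 below 0. In 20 of 22 genes the 95% interval of the difference lay within 1.5-fold either way. No gene had groups that did not overlap, against 8.11% of all tested genes. Per kilobase of exon, the median level of the 22 genes was 4.19 CPM, beside 3.84 CPM over all tested genes. The median spread between libraries (SD as a share of the mean) was 9.90% in WT and 6.99% in E-cad-KO.

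Promoters of these genes were searched for motifs of the factors named above, in the 250 bases before each RefSeq start on GRCm38.p6, for the 63 of 76 members in that table. The motifs, on both strands, were the X-box arm GTTGCC, an X-box pair (GTTNCC, 1 to 3 bases, GGNAAC, in which an arm can lie) and the forkhead motif TGTTTAC. An X-box pair stood before 2 of 19 primary cilium genes, 1 of 41 motile cilium genes and 0 of 3 single genes, beside 0.766% of all 27025 genes. An arm, in a pair or not, stood before 4 of 19 primary, 14 of 41 motile (34.1%) and 1 of 3 single genes (Rfx2), beside 11.8% of all genes. An arm and no pair stood before 2 of 19, 13 of 41 and 1 of 3, beside 11.3% of all genes. The pairs of the primary cilium genes are shown because they are the paired matches in this class, with the match in capitals and 7 bases on each side. The printed window of Ift57 lies at chr16:49699227-49699253 on the plus strand and overlaps an exon of Ift57. That of Bbs7 lies at chr3:36613490-36613517 on the minus strand, between annotated genes.
Ift57: ccctgcgGTTGCCTGGTAACggtgggg
Bbs7: cgccccgGTTGCCTTGGAAACcggccag
A match is a description of these letters and not a measured binding site.

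Among the Ift genes, those with the highest level per kilobase were Ift20 (43.8 CPM per kb), Ift43 (25.97) and Ift46 (15.2). Ift20, an IFT-B subunit also found at the Golgi, stood at 67.2, 69.5, 70.9 and 73.8 CPM in WT 1 to 4 and at 61.0, 59.5, 62.9, 68.4 and 67.3 CPM in E-cad-KO 1 to 5. Its groups overlapped only through WT 1 and the E-cad-KO libraries 4 and 5, and its log2 fold change was -0.14 (95% interval -0.27 to -0.01, adjusted p = 0.249 by edgeR). Ift43, of the IFT-A complex, averaged 42.7 ± 6.15 CPM (SD, n = 4) in WT against 43.0 ± 2.33 CPM (SD, n = 5) in E-cad-KO, a log2 difference of 0.01. Ift46, an IFT-B subunit, averaged 100.3 ± 9.52 and 95.6 ± 6.07 CPM, a log2 difference of -0.07.

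Ift27, a small GTPase of IFT-B that links trains to the BBSome, had the lowest log2 fold change of the Ift genes. It stood at 9.78, 10.4, 11.8 and 13.7 CPM in WT 1 to 4 and at 10.7, 9.70, 9.22, 9.34 and 8.25 CPM in E-cad-KO 1 to 5. The groups overlapped, and the log2 fold change of -0.27 (95% interval -0.53 to -0.01) had an adjusted p of 0.272 by edgeR. Ift57, an IFT-B subunit whose promoter window is printed above, had the highest, 0.19 (95% interval -0.10 to 0.47, adjusted p = 0.510). It stood at 11.9, 15.7, 16.4 and 16.3 CPM in WT and at 17.9, 14.3, 16.1, 20.8 and 16.5 CPM in E-cad-KO, so the groups overlapped. The summed level of the 14 Ift genes was 465.8 to 519.5 CPM in WT and 449.8 to 499.7 CPM in E-cad-KO. Its highest library in each group was WT 4 and E-cad-KO 4, with E-cad-KO 5 at 499.6 CPM, and these are also the libraries with the highest macrophage sums. The part of other cells in these sums was not tested.

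The Bbs genes had a median level of 2.80 CPM per kb, beside 6.003 CPM per kb for the Ift genes. Bbs5, a BBSome subunit, averaged 13.2 ± 0.323 CPM (SD, n = 4) in WT against 13.5 ± 1.39 CPM (SD, n = 5) in E-cad-KO, a log2 difference of 0.03. Bbs9, another subunit, averaged 21.04 ± 2.79 and 19.2 ± 0.442 CPM, with WT 2 at 25.1 CPM above all other libraries, and its log2 difference was -0.13. Bbs10 and Bbs12 encode chaperonin-like proteins that help to assemble the BBSome. Bbs12 averaged 12.3 ± 1.179 and 11.1 ± 0.596 CPM, a log2 difference of -0.15 (adjusted p = 0.429 by edgeR). Bbs10 stood at 4.50, 4.56, 4.56 and 6.94 CPM in WT and at 4.50, 4.46, 3.39, 4.24 and 5.25 CPM in E-cad-KO, a log2 difference of -0.23 (95% interval -0.62 to 0.16). Bbs12 shares exon bases with a gene on each strand, so its counts may include reads of a neighbour.

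Bbs2, a BBSome subunit chosen for mention after its values were seen, stood apart in 1 library. WT 4 had 4.36 CPM, and the other 8 libraries had 9.58 to 11.2 CPM. Its log2 fold change was 0.18 (95% interval -0.34 to 0.69) with all libraries and -0.05 without WT 4. Neither value was called by edgeR, with adjusted p of 0.763 and 0.823.

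**Figure D2:**
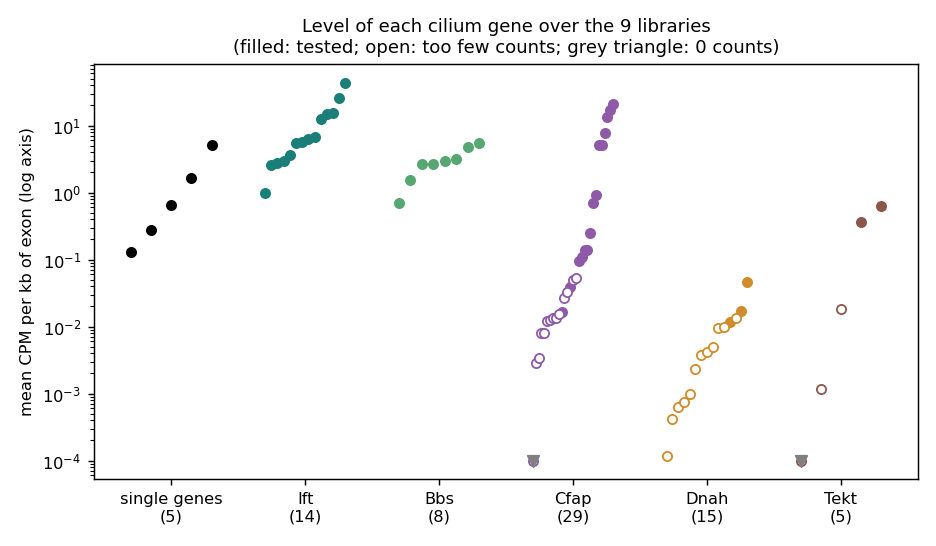
Mean level of each of the 76 cilium genes over the 9 libraries, in CPM per kilobase of exon on a log axis, by family; filled points were tested, open points had too few counts, and grey triangles mark genes with 0 counts. All Ift and Bbs genes lie above 0.69 CPM per kb, while most Cfap and all Dnah genes lie below that.

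The genes of motile cilia were mostly near the limit of detection. Of 49 such genes 37 averaged under 1 CPM, and their median level was 0.0152 CPM per kb. The 29 that were not tested averaged at most 0.196 CPM and had at most 100 counts each over all 9 libraries. With a filter of at least 1 count in any library, 47 of the 49 were tested, edgeR called 0 and 3 had an unadjusted p under 0.05. Of all 29297 genes tested with that filter, 213 were called and 3251 had an unadjusted p under 0.05. Cfap73 and Tekt4 had 0 counts. Among the 20 tested, 0 were called by edgeR and 4 had an unadjusted p under 0.05, beside 16.7% of all tested genes. DESeq2 called 1 of the 15 it tested, beside 7.46% of all genes it tested, and limma-voom 1 of 20, beside 2.94%; both calls were Cfap43. The log2 fold changes ran from -0.48 to 0.92 with a median of 0.05, 10 above and 10 below 0. In 3 of 20 the groups did not overlap, each with E-cad-KO higher, against 4.28% of all tested genes that were higher without overlap and 3.83% that were lower. Passing the filter can depend on the group with the higher level, so these counts are a description of the 20 tested genes. The 95% interval lay within 1.5-fold in 5 of 20, so for most tested motile genes a change of that size was neither shown nor bounded.

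Cfap43, which encodes a protein of the motile axoneme, was the motile cilium gene nearest to a call. It stood at 20.1, 27.6, 27.99 and 32.8 CPM in WT 1 to 4 and at 46.1, 36.8, 37.2, 44.7 and 47.7 CPM in E-cad-KO 1 to 5. The groups did not overlap, with WT 4 the highest of its group and E-cad-KO 2 the lowest of the other. The means were 27.1 ± 5.26 CPM (SD, n = 4) and 42.5 ± 5.12 CPM (SD, n = 5). The log2 fold change was 0.65 (SE 0.14, 95% interval 0.34 to 0.95), with an adjusted p of 0.0511 by edgeR, just outside the threshold. The adjusted p was 0.000465 in DESeq2, 0.0210 in limma-voom and 0.0331 in edgeR without WT 4. Cfap43 lies at chr19:47736857-47919287 on the minus strand. In annotation release M21, 246 of its 7059 exon bases are shared on the same strand with Itprip and Gm22240. The M21 identifier of Itprip is later than any among the genes counted. Under it, Itprip could therefore not be looked at as a gene of its own. Its reads may have been counted for Cfap43, and its part in the Cfap43 counts was not tested.

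The forkhead motif stood before 4 of 41 motile cilium genes (9.76%), 0 of 19 primary cilium genes and 0 of 3 single genes, beside 3.54% of all genes. The windows of Cfap43 and Cfap20 are printed because these are the expressed genes with a match, one near a call and the other not. Cfap43 has it at chr19:47837403-47837423 on the minus strand, in an intron of Cfap43, and Cfap20 at chr8:95435038-95435058 on the minus strand, between annotated genes. Capitals mark the match, which reads as its reverse complement here.
Cfap43: tacaggtGTAAACAgtggcat
Cfap20: aggcactGTAAACAcgtgagg
Dnah17 and Tekt3 held the other matches, in windows at chr11:118129407-118129427 and chr11:63061478-63061498. Cfap298 was the motile cilium gene with an X-box pair, and it had 2. Their windows lie at chr16:90934897-90934925 and chr16:90935017-90935044 on the minus strand. Both overlap exons of Cfap298, the latter also an exon of 4930534H18Rik.
Cfap298, first: tttgactGTTGCCCCTGGCAACagccact
Cfap298, other: ggttttgGTTGCCCGGGCAACagctact

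Cfap298, which encodes a factor needed to assemble dynein arms, had the highest level per kilobase of the motile cilium genes (21.1 CPM per kb). It stood at 30.5, 31.7, 30.8 and 31.0 CPM in WT 1 to 4 and at 36.5, 31.5, 34.8, 38.5 and 36.2 CPM in E-cad-KO 1 to 5. E-cad-KO 2 alone fell within the WT range, and the log2 fold change was 0.20 (95% interval 0.06 to 0.34, adjusted p = 0.150 by edgeR). Its exons overlap Gm49727 and 4930534H18Rik on the opposite strand, and whether counting used the strand is not given in the sources used here. Cfap36 averaged 47.7 ± 7.88 CPM (SD, n = 4) in WT against 46.8 ± 6.71 CPM (SD, n = 5) in E-cad-KO, a log2 difference of -0.03. Cfap20, a protein of the doublet microtubules, averaged 62.3 ± 5.00 and 58.2 ± 3.19 CPM, a log2 difference of -0.10 (95% interval -0.25 to 0.05). At 13.5 to 21.1 CPM per kb these 3 genes lay within the range of the Ift genes (0.991 to 43.8 CPM per kb), whereas 18 of 29 Cfap genes averaged under 1 CPM.

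Cfap54 and Cfap61 were the other motile cilium genes whose groups did not overlap. Cfap54, of the central apparatus, stood at 1.92, 1.67, 1.79 and 1.42 CPM in WT 1 to 4 and at 2.51, 2.20, 2.26, 2.11 and 2.16 CPM in E-cad-KO 1 to 5. Cfap54 had a log2 fold change of 0.40 (95% interval 0.06 to 0.75), with an adjusted p of 0.224 by edgeR. Cfap61, a radial spoke associated protein named here after its values were seen, stood at 0.374, 0.287, 0.361 and 0.274 CPM in WT and at 0.562, 0.439, 0.429, 0.594 and 0.451 CPM in E-cad-KO. Its log2 fold change was 0.61 (95% interval 0.05 to 1.16), with an adjusted p of 0.252 by edgeR.

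No axonemal dynein heavy chain reached 1 CPM on average, and 3 of 15 were tested. Dnah6, an inner arm heavy chain, had the highest level, with 25, 16, 21 and 33 counts in WT 1 to 4 and 49, 26, 14, 58 and 66 counts in the 5 E-cad-KO libraries. In CPM the groups overlapped: E-cad-KO 3, at 0.316 CPM, lay below WT 1, 3 and 4, while E-cad-KO 4 and 5, at 1.19 and 1.03 CPM, were the highest. The log2 fold change of Dnah6 was 0.92 (95% interval -0.03 to 1.87, adjusted p = 0.315 by edgeR). Dnah10, also of the inner arms, averaged 0.296 ± 0.254 CPM (SD, n = 4) in WT against 0.256 ± 0.100 CPM (SD, n = 5) in E-cad-KO, where WT 4 alone stood at 0.675 CPM. The log2 difference of Dnah10 was -0.19 with all libraries and 0.59 without WT 4, neither called by edgeR (adjusted p = 0.902 and 0.523). Dnah17, of the outer arms, averaged 0.214 ± 0.109 and 0.173 ± 0.0521 CPM, a log2 difference of -0.32, and its exons overlap those of Pgs1. Dnah11, untested, averaged 0.207 and 0.178 CPM and overlaps Cdca7l on the opposite strand. Dnah7a, Dnah7b and Dnah7c are near-identical copies, and reads of one may have been counted for another.

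The tektins, filament proteins of the doublet microtubules, were also low. Tekt2 stood at 1.26, 1.37, 1.92 and 0.876 CPM in WT 1 to 4 and at 0.896, 1.35, 1.04, 1.25 and 0.933 CPM in E-cad-KO 1 to 5, with overlapping groups. Its log2 fold change was -0.31 (95% interval -0.87 to 0.25, adjusted p = 0.593 by edgeR). Tekt5 averaged 0.625 ± 0.298 CPM (SD, n = 4) in WT against 0.686 ± 0.308 CPM (SD, n = 5) in E-cad-KO, a log2 difference of 0.13. Tekt1, untested, averaged 0.0252 and 0.0333 CPM. Summed over a family, the Cfap genes stood at 219.6 to 242.0 CPM in WT and 220.0 to 254.4 CPM in E-cad-KO. The Dnah genes summed to 1.07 to 2.79 and 1.12 to 2.72 CPM, and the Tekt genes to 1.28 to 2.46 and 1.20 to 2.48 CPM, so the groups overlapped for each family.

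**Figure D3:**
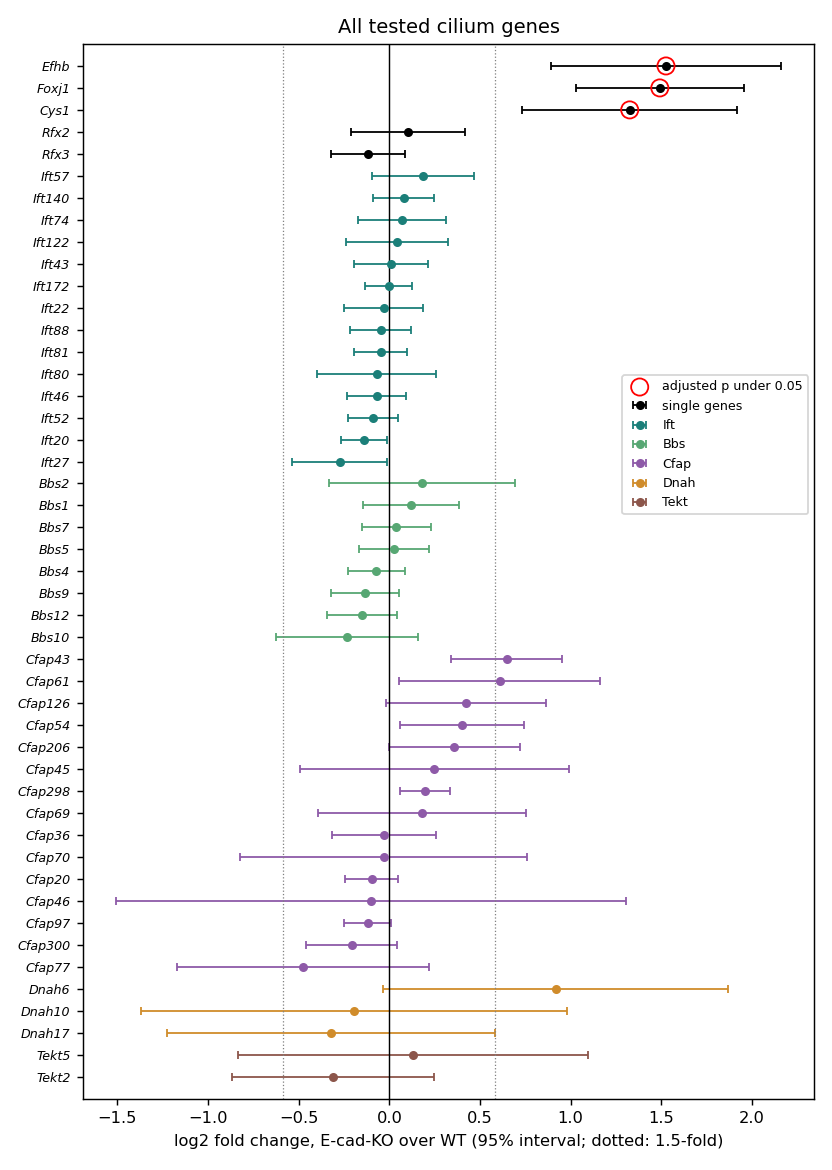
Log2 fold change of E-cad-KO over WT for the 47 tested cilium genes, with 95% intervals from edgeR, coloured by family; dotted lines mark 1.5-fold and circles mark adjusted p under 0.05. Foxj1, Efhb and Cys1 are circled at 1.33 to 1.53, the Ift and Bbs genes lie between -0.27 and 0.19 with short intervals, and the Cfap, Dnah and Tekt genes lie between -0.48 and 0.92.

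Other genes of the cilium, grouped by role, gave 0 calls by edgeR, beside 1.41% of all tested genes. At an unadjusted p under 0.05, 1511 of all 17289 tested genes were higher and 1382 lower. IFT, BBSome and motor genes under other names had 10 of 23 tested genes above 0 and a median log2 fold change of -0.05, with 0 higher and 2 lower at an unadjusted p under 0.05. Wdpcp, a planar polarity effector needed for ciliogenesis, averaged 12.7 ± 0.380 CPM (SD, n = 4) in WT against 10.7 ± 0.719 CPM (SD, n = 5) in E-cad-KO, and its groups did not overlap. Its log2 fold change was -0.24 (adjusted p = 0.150 by edgeR). DESeq2 called it lower, as 1 of 23 genes of this list, beside 7.46% of all genes it tested. From this list limma-voom called 0 genes. Cluap1, an IFT-B subunit, had a log2 fold change of -0.19 (adjusted p = 0.199 by edgeR).

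Transition zone and basal body genes, which form the gate at the base of the cilium, had 13 of 26 above 0 and a median of -0.01. At an unadjusted p under 0.05 they had 2 in each direction, beside 16.7% of all tested genes in either direction. Tctn2 had a log2 fold change of 0.31 and Rpgrip1l one of 0.24 (adjusted p = 0.168 and 0.171 by edgeR). Genes of ciliary signalling had 10 of 19 above 0 and a median of 0.01. At an unadjusted p under 0.05, 5 were higher and 0 lower, beside 1511 higher and 1382 lower of all 17289 tested genes. Ptch1, the Hedgehog receptor, averaged 31.2 ± 4.08 CPM (SD, n = 4) in WT against 37.1 ± 2.71 CPM (SD, n = 5) in E-cad-KO, a log2 difference of 0.25 (adjusted p = 0.211 by edgeR). Gpr161, a ciliary receptor that restrains Hedgehog signalling, averaged 11.8 ± 2.84 and 15.3 ± 1.29 CPM, a log2 difference of 0.38 (adjusted p = 0.237). For both of these lists DESeq2 and limma-voom called 0 genes. With the macrophage score as a covariate edgeR called Gpr161, higher, as 1 of 19 signalling genes, beside 1161 of all 17289 genes in that fit.

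In a list of 13 genes of the multiciliation programme, Mcidas, Cdc20b, Rfx4, Deup1, Gmnc and Ccno were not tested. They had at most 24 counts each over all 9 libraries. The 7 tested were Myb, Trp73, E2f4, E2f5, Rfx1, Rfx5 and Rfx7, so their levels do not show that the programme as a whole is expressed. Of these 7, 5 were above 0, with a median of 0.04. Beside 16.7% of all tested genes in either direction, 1 was higher at an unadjusted p under 0.05. That was E2f4, a partner of the multiciliation coactivators that also acts in the cell cycle, at 29.8 ± 1.14 CPM (SD, n = 4) in WT against 33.4 ± 1.31 CPM (SD, n = 5) in E-cad-KO, without overlap. E2f4 had a log2 fold change of 0.17 (adjusted p = 0.158 by edgeR). Trp73, a factor upstream of Foxj1 in airway multiciliated cells, averaged 11.02 ± 3.18 and 8.07 ± 2.10 CPM, a log2 difference of -0.45 (adjusted p = 0.390). It was called lower with the macrophage score as a covariate, as 1 of 7 genes, beside 1161 of all 17289 genes in that fit. Other axoneme genes had 22 of 31 tested genes above 0, beside 48.0% of all tested genes, with a median of 0.13. Against 16.7% of all tested genes in either direction, 2 were higher at an unadjusted p under 0.05. These were Iqcg, of the dynein regulatory complex, with a log2 fold change of 0.62, and Enkur, with 0.71 (adjusted p = 0.182 and 0.209 by edgeR). DESeq2 and limma-voom called 0 genes in these last lists too.

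**Figure D4:**
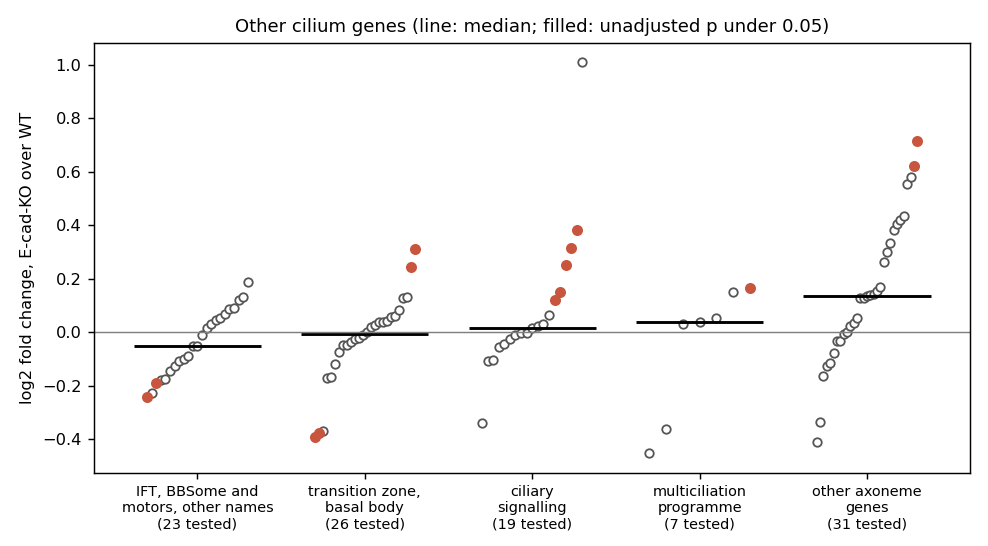
Log2 fold change of E-cad-KO over WT for the tested genes of 5 other cilium lists; each point is a gene, the line is the list's median, and filled points had an unadjusted p under 0.05 in edgeR. The medians lie between -0.05 and 0.13, and no point passed the adjusted threshold.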

How the data were processed

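The authors deposited raw counts per gene for each library, not normalised. Per the labels' protocols, frozen gels were extracted whole with RNeasy and libraries made with a stranded TruSeq mRNA kit. The tools named per the submitters' processing notes are Bowtie2, TopHat2 and HTSeq, with the build GRCm38. The sources used here give no versions, annotation release or strand setting. Where counting ignored strand, the 25 members with exons overlapping a gene on the opposite strand could share its reads, and 3 members (Cfap43, Cfap299, Bbs12) overlap on the same strand.

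Symbols, positions and exon lengths came from GENCODE M21 (51633 of 51912 genes had a symbol). Promoter sequences came from RefSeq on GRCm38.p6, where Foxj1 and Efhb have no entry. Counts were tested with the quasi-likelihood test of edgeR 4.0.16 (R 4.3.3), with TMM factors, filterByExpr, a model of group alone and adjustment by Benjamini-Hochberg over 17289 genes, two-sided. CPM per kb divides by the summed exon length. All pairs of libraries differed beyond sampling noise (smallest chi-square per degree of freedom 14.8). The routine was tested on simulated counts.

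The members and all lists were chosen with earlier results of these data known. Named genes are the 5 single genes, called members, in each family the 3 highest per kb, the 3 tested with the smallest p and any member with at least 5 CPM and a 1.5-fold difference, and in each other list the 2 with the smallest p. Bbs2, Bbs7, Cfap61, Cfap97, Tekt3 and the keratins were added after their values or windows were seen. Bbs2 and Cfap97 entered the checks by their place on chromosome 8, where Cfap20 also lies. Alternatives were median-of-ratios and upper-quartile factors, other filters (at least 1 count in any library, or 1 CPM in 4 libraries), DESeq2 1.42.0, limma-voom (limma 3.58.1) with quality weights, leaving out each library, a replicate block, WT 1 and WT 4 left out together, and a macrophage score as covariate.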

Additional observations from a re-analysis of the deposited data

Results flagged for a closer look

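Named cilium genes and the summed levels of the families were checked in each group, 68 checks in all. In 9 of them, all of individual genes and not of family sums, 1 library stood far from the others of its group by Dixon's criterion. Chance flags about 1 in 20 such checks where they are independent. These checks share libraries, and some genes, Bbs2 and Cfap97 among them, were added outside the naming rule. The 9 flags are therefore a description and not a test against that rate. In WT, Foxj1 was 8.79 CPM in WT 2, beside 5.76 to 6.26 CPM in the other 3, and Ift57 was 11.9 CPM in WT 1, beside 15.7 to 16.4 CPM. WT 4 stood apart for 3 genes: Bbs2 at 4.36 CPM beside 10.005 to 11.2 CPM, Bbs10 at 6.94 CPM beside 4.50 to 4.56 CPM, and Dnah10 at 0.675 CPM beside 0.131 to 0.204 CPM. In E-cad-KO, library 4 stood apart for Efhb, 1.11 CPM beside 0.659 to 0.777 CPM, and for Dnah11, 0.389 CPM beside 0.0845 to 0.158 CPM. Ift43 was 47.1 CPM in E-cad-KO 2, beside 41.3 to 42.4 CPM, and Cfap97 was 42.2 CPM in E-cad-KO 5, beside 37.1 to 38.01 CPM.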

How the results depend on the processing

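The count of 244 genes called over the whole table became 1124 with DESeq2, 509 with limma-voom, 1161 with the macrophage covariate, 79 without both WT 1 and WT 4, and 9 to 334 with 1 library left out (lowest without WT 3, highest without WT 4). Upper-quartile factors gave 274, split 123 higher and 151 lower, against 157 and 87. The Ift and Bbs genes had 0 calls under all 18 alternatives. The motile cilium genes went from 0 to 1, Cfap43, with the 1 CPM filter, DESeq2, limma-voom and the macrophage covariate, and ranged from 0 to 1 with 1 library left out. The single genes went from 3 calls to 2 with limma-voom and with the filter of at least 1 count (Cys1 lost in both), to 1 with the 1 CPM filter, which leaves Efhb and Cys1 untested, to 0 without both WT 1 and WT 4, and to between 0 and 2 with 1 library left out. Over their alternatives Foxj1 kept a log2 fold change of 1.36 to 1.65 and was called in 15 of 18 (adjusted p = 0.0777 without WT 3 and 0.0879 without both WT 1 and WT 4, by edgeR), Efhb 1.37 to 1.79 and 7 of 17, Cys1 1.12 to 1.45 and 4 of 17, and Cfap43 0.53 to 0.75 and 5 of 18. A replicate block, with 0 genes called over the whole table (2418 at an unadjusted p under 0.05), left 0 of the single genes called, Foxj1 at 1.39 (adjusted p = 0.125 by edgeR). Deviations from the group mean in WT and E-cad-KO libraries of the same number had correlations of -0.32, 0.23, -0.03 and 0.28. By these, 1 of 4 WT libraries was closest to its own number. So few pairs cannot show whether libraries of the same number share an animal, and the labels do not give the animal. Signs turned, all in uncalled genes, for Ift43 (-0.0221 with upper-quartile factors, -0.0204 with limma-voom, -0.0718 to 0.0935 with 1 library left out), Bbs5 (-0.0045 with upper-quartile factors, -0.0326 with the replicate block, -0.0224 to 0.0670), Cfap36 (0.0117 with limma-voom, 0.0451 without both WT 1 and WT 4, -0.0844 to 0.0850), Dnah10 (0.42, 0.74, -0.44 to 0.59 in that order), Dnah17 (-0.498 to 0.0862 with 1 library left out), Tekt5 (-0.11 to 0.51) and Bbs2 (-0.0323 without both, -0.0512 to 0.290). The cause was not tested. Low counts limit the motile cilium genes most, since 37 of 49 averaged under 1 CPM.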
